A study of Mus musculus with 42 samples.

Results

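The genes described here are the 36 that encode mTORC1, its regulators and its first substrates: the complex subunits, Rheb and the TSC complex, the Rag GTPases, Ragulator, the lysosomal arginine sensor Slc38a9, the sestrins, GATOR1 and GATOR2, the folliculin complex, and the substrates Rps6kb1, Eif4ebp1 and Eif4ebp2. They were taken by symbol from a list drawn up for this purpose, out of 55487 gene identifiers in the count tables. The list did not use their measured values, but it was chosen with earlier results of these data known. All 36 were found in the tables. The leukaemia is MLL-AF9 acute myeloid leukaemia (AML), a transplantable mouse leukaemia whose cells carry green fluorescent protein (GFP) and luciferase. The cells came from 1 terminally ill mouse and were grown in culture before transplantation, so all mice carried the same leukaemia. Male wild-type recipients of 8 to 10 weeks received the cells by vein with no conditioning, and so kept their own blood cells. They were then given either 5+3 or vehicle (PBS) by intraperitoneal injection. The 5+3 course was cytarabine at 100 mg/kg on 5 days, with doxorubicin at 3 mg/kg on the first 3 of them. Their food either held the usual amino acids (AA diet) or lacked leucine, isoleucine and valine, known as branched-chain amino acids (BCAA-free diet). The 4 groups were AA vehicle (5 mice), AA 5+3 (4), BCAA-free vehicle (5) and BCAA-free 5+3 (7). Each of the 21 mice gave GFP-positive bone marrow cells, sorted when the response to chemotherapy was at its maximum. From each lysate came 1 Smart-seq2 mRNA library and 1 library of ribosome footprints, the pieces of mRNA that a ribosome shields from RNase.

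mTORC1 is a protein kinase complex on the lysosome that promotes protein synthesis and cell growth when amino acids are plentiful. Leucine is sensed by sestrins, which bind GATOR2 when leucine is low; GATOR2 holds back GATOR1, and GATOR1 switches off the Rag GTPases that bring mTORC1 to the lysosome, where Rheb activates it. FLCN with FNIP1 or FNIP2 sets the nucleotide state of RagC or RagD, and this step governs the phosphorylation of the transcription factors TFEB and TFE3. The activity of mTORC1 is set by protein contacts and phosphorylation, which neither kind of library measures.

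Promoter sequence is shown for 3 genes of the folliculin branch, namely Flcn, Fnip1 and Rragc. They passed the test described below with lower footprints when 5+3 was given on the BCAA-free diet. Fnip2, of the same branch, did not pass, and its mean footprints were higher with 5+3 there. The sequences are from RefSeq on build GRCm38.p6, 5′ to 3′ on the strand of the gene, and end just before the annotated start except for Fnip1, where a window of 30 bases around the match is shown. Capitals mark a match to 1 of the 3 motifs searched. Flcn lies on the minus strand (chr11:59810040-59810289), and its capitals are the cAMP response element palindrome TGACGTCA, whose first base is 49 bases before the start:
Flcn: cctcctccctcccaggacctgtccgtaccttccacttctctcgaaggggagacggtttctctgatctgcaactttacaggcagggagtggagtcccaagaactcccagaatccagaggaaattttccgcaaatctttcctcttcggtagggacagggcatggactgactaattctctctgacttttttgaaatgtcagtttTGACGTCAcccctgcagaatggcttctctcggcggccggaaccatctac
Rragc (plus strand, chr4:123917183-123917432) and Fnip1 (plus strand, chr11:54438092-54438121) hold the E-box core CACGTG, the sequence that MYC and the TFEB family bind. Its first base is 112 bases before the start of Rragc. For Fnip1 it is 75 bases before the start in the promoter table (54438179) and 3 bases before the start of the whole gene span given below (54438107), which the window crosses:
Rragc: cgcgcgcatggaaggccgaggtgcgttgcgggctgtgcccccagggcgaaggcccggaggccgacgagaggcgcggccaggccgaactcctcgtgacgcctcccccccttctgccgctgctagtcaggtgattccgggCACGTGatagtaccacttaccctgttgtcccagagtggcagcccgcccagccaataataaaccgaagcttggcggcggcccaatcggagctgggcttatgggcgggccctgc
Fnip1: tcagtttgctgcCACGTGatacggctcgtc

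Both strands of the 250 bases before each start were searched for 3 motifs, none of which contains another. CACGTG was in 6.02% of 32851 RefSeq promoters and in 7 of the 31 member genes with an entry, Fnip1, Lamtor1, Lamtor4, Rheb, Rragb, Rragc and Tbc1d7. TGACGTCA was in 1.55% of promoters and in 1 member, Flcn. TGATGNAA, the core of the amino acid response element that ATF4 binds, was in 3.45% of promoters and in 1 member, Lamtor4. These matches are letters in a window and were not tied to binding in these cells.

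Gene counts per library ran from 30996200 to 70437713 in mRNA (median 48804734) and from 2697092 to 8863472 in footprints (median 4683466). Levels are TMM-scaled CPM, a gene's counts relative to the library total, and since no transcript lengths were used, levels are compared between groups and not between genes. In mRNA, 4 libraries stood apart at the upper end of the first principal component (24.1% of the variance). Their scores were 68.4 to 253 against -80.4 to 29.2 in the others. The set is thus 1-sided, since some of the others lay farther below 0 than the lowest of the 4 lay above it. The 4 were BCAA-free vehicle mice 1, 2 and 5 and BCAA-free 5+3 mouse 7, and calls that rest on these groups were also computed without these 4 mice. In footprints (first component, 27.8% of the variance) vehicle mice 1, 2 and 5 scored -5.52, 0.94 and -22.7, beside 9.54 and -11.7 in mice 3 and 4. BCAA-free 5+3 mouse 7 scored 38.3, within the 24.3 to 47.7 of its group. The lowest footprint scores were those of AA vehicle mice 1 and 2, at -46.7 and -57.3. The 8 leukaemia markers (Ptprc, Kit, Mpo, Elane, Hoxa9, Meis1, Itgam and Csf1r) were present in every group, with summed footprints of 5294 to 10160 CPM. Markers of neutrophils and red cells were lowest on the BCAA-free diet with 5+3, by the median: the summed footprints of 7 neutrophil genes were 90.8 to 1024 CPM there (median 198) against 624 to 1930 in the other groups, and those of 7 red cell genes were 7.36 to 25.7 against 32.5 to 215. No marker of these 2 lists was at 0 throughout. Summed footprints of the T and NK cell list were 3.10 to 10.5 CPM and of the B cell list 10.2 to 33.2 over all mice, with the lowest medians in AA vehicle and AA 5+3 mice, respectively. In AA vehicle mice 2 of the 6 T and NK cell markers were at 0 throughout. Sums of the stroma and macrophage lists were 4.71 to 31.6 and 122 to 307, lowest by the median with BCAA-free 5+3. The part of these cells in the results below was not tested, and in sorted bulk samples fewer cells of a type and less RNA per cell cannot be told apart. The names of the AA vehicle mice end in an unexplained letter B. Should it stand for a batch, that batch and this group cannot be told apart.

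Of the 36 members, 35 were tested in mRNA and 33 in footprints and in the footprint-to-mRNA ratio. Rragb was too low in both kinds, with a highest value of 0.346 CPM in mRNA and 0.395 in footprints. Rragd and Sesn3 were too low in footprints only. Of the Rag genes, Rraga and Rragc could be tested throughout, with Rragd at 0 to 4.23 CPM in mRNA. At least 1 of 15 comparisons was passed by 20 members, 7 in mRNA, 15 in footprints and 5 in the ratio, at an adjusted p under 0.05 in edgeR's quasi-likelihood test. How many of all genes passed at least 1 was not computed, so these counts are no result about the members.

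When 5+3 was given on the BCAA-free diet, 9 of 33 members passed with lower footprints and 1 with higher. That was 30.3% of those tested, where 20.6% of all genes passed (11.9% lower and 8.76% higher). The members that fell sit at several levels of the pathway: Rptor in the complex itself, Rragc, Lamtor3 and Lamtor5 on the lysosome, the sensor Slc38a9, Wdr24 of GATOR2, Nprl2 of GATOR1, and Flcn with Fnip1. The 1 that passed as higher was Eif4ebp1, the inhibitor of cap-dependent translation. Whether they passed or not, 9 of the 33 changes were positive. The median log2 change of the 33 was -0.13, beside -0.02 over all genes. Without the 4 mice, where the vehicle group keeps 2 mice, only Flcn passed, and 2.39% of all genes did. The other 9 members that had passed kept the sign of their change, with adjusted p of 0.071 (Lamtor3) to 0.361 (Lamtor5).

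Comparing the diets under 5+3, footprints were lower on the BCAA-free diet for 7 members and higher for 3, again 30.3%, where 28.3% of all genes passed (15.8% lower and 12.5% higher). The members' share is close to that of all genes, so the count by itself is no result about them. Lower were Mtor, Rptor, Lamtor3, Slc38a9, Wdr24, Nprl2 and Depdc5, and higher were Deptor, Rraga and Rps6kb1. The median change was -0.06 for the members and 0.00 for all genes. The BCAA-free 5+3 mice are in this comparison and in the one above, so a level particular to them enters both. With the 4 mice left out 9 members passed, 5 lower and 4 higher, where 23.9% of all genes did. Of those named, Wdr24 (adjusted p = 0.0997) and Slc38a9 (adjusted p = 0.0665) lost their calls. The 9 thus include a member not named here.

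In the other footprint comparisons few members passed. Chemotherapy on the AA diet lowered 1 member, Flcn, where 6.61% of all genes passed (3.12% lower and 3.49% higher). The interaction of diet with chemotherapy, which asks whether 5+3 acts differently on the 2 diets, passed for 2 members, Nprl2 and Lamtor3, where 7.09% of all genes passed (3.8% negative and 3.29% positive). Both fell with 5+3 on the BCAA-free diet, while their changes on the AA diet were positive and did not pass. With vehicle the diet changed no member in edgeR's test, where 2.04% of all genes passed (1.4% lower and 0.642% higher). DESeq2 and limma-voom passed none there either. In edgeR's test 5 members had an unadjusted p under 0.05 there. The share of all genes under that unadjusted threshold was not computed, so this count is no result about the members.

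**Figure D1:**
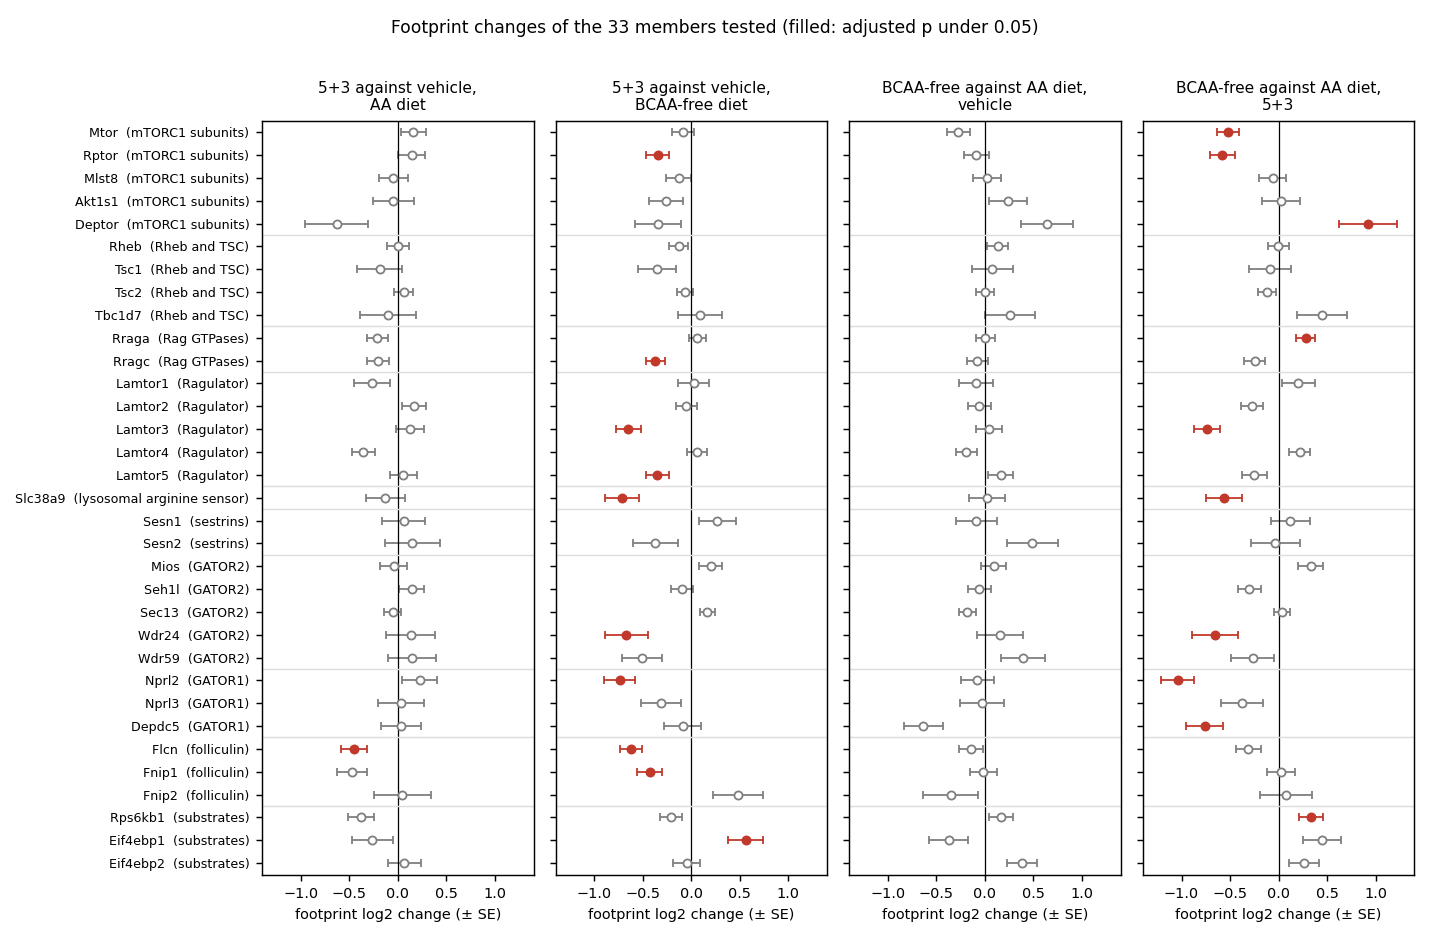
Footprint log2 changes (horizontal axis, ± SE) of the 33 members tested, in rows by role, for 5+3 against vehicle on each diet and for the BCAA-free against the AA diet under each treatment. Filled points passed at an adjusted p under 0.05: 1, 10, 0 and 10 members from left to right, most of those in the panels with 10 below 0.

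In mRNA, 5+3 on the BCAA-free diet raised 4 members and lowered 3, 20% of the 35 tested, where 8.56% of all genes passed (4.33% higher and 4.23% lower). Raised were Rragc and the GATOR2 genes Mios, Seh1l and Sec13, and lowered were Slc38a9, Nprl2 and Eif4ebp2. All 7 lost their call without the 4 mice, with adjusted p of 0.21 to 0.314. None changed sign; the largest shifts were those of Eif4ebp2, from -1.06 to -0.69, and Nprl2, from -0.66 to -0.90. The other mRNA comparisons passed no member in edgeR's test. Of all genes, 0.0616% passed for 5+3 on the AA diet (0.0189% higher and 0.0426% lower) and 0% for the diet with vehicle. For the diet under 5+3 it was 1.24% (0.559% higher and 0.682% lower), and for the interaction 0.0758% (0.0237% positive and 0.0521% negative). Unadjusted p was under 0.05 for 0, 1, 7 and 4 members in this order of comparisons. The share of all genes under that unadjusted threshold was not computed, so these counts are no result about the members. DESeq2 passed 1 member for the diet under 5+3 and limma-voom none; neither tool passed a member in the other 3.

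Mtor is the kinase (ENSMUSG00000028991, chromosome 4, 148448582 to 148557685 on GRCm38). Its footprints were 33.9, 37.2, 40.8, 40.9 and 48.9 CPM in AA vehicle mice, 39.3, 41.4, 43.8 and 55.3 with AA 5+3, 29.9, 31.4, 32.6, 34.3 and 36.9 in BCAA-free vehicle mice, and 27.1 to 37.9 (median 28.7) with BCAA-free 5+3. Every BCAA-free 5+3 mouse lay below every AA 5+3 mouse, and the BCAA-free vehicle values overlapped those of AA vehicle. The diet difference under 5+3 was -0.52 ± 0.12 (log2, SE), 1.44-fold lower (adjusted p = 0.00148). With vehicle it was -0.27 ± 0.12 (adjusted p = 0.222), and the interaction was -0.25 ± 0.17 (adjusted p = 0.38), so the diet difference was not shown to depend on chemotherapy. Mtor mRNA did not pass: it was 19.3, 20.2, 22.8 and 24.0 CPM in the AA 5+3 mice and 18.2 to 44.1 (median 29.4) in the BCAA-free 5+3 mice (0.46 ± 0.22, adjusted p = 0.381). The change in the Mtor footprint-to-mRNA ratio between the diets under 5+3 was -0.83 ± 0.22 with no overlap between the groups, and did not pass either (adjusted p = 0.263).

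Rptor encodes Raptor, the subunit that docks substrates and binds the Rag GTPases (ENSMUSG00000025583, chromosome 11, 119602905 to 119899591). Footprints were 13.7, 16.6, 17.1, 19.1 and 23.7 CPM in AA vehicle, 17.6, 18.7, 19.6 and 22.6 in AA 5+3, 15.7, 16.3, 16.6, 17.0 and 17.8 in BCAA-free vehicle and 10.2 to 15.0 (median 13.5) in BCAA-free 5+3 mice. The BCAA-free 5+3 mice lay below all AA 5+3 and all BCAA-free vehicle mice. Against AA 5+3 the change was -0.58 ± 0.13 (1.49-fold lower, adjusted p = 0.00149), and against BCAA-free vehicle -0.35 ± 0.12 (1.27-fold lower, adjusted p = 0.0427). The latter call was lost in 10 of 12 fits that left out 1 mouse and without the 4 mice (-0.28, adjusted p = 0.344). Rptor mRNA was 17.8 to 40.5 CPM in AA vehicle mice (median 26.0), 19.7 to 36 in AA 5+3, 22.5 to 36.4 in BCAA-free vehicle and 15.9 to 25.4 in BCAA-free 5+3 mice, with no comparison passed.

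Deptor, an inhibitor subunit of the complex (ENSMUSG00000022419, chromosome 15, 55112317 to 55259273), had few footprints, with a median of 15 counts per library. It was at 2.2, 2.25, 2.37, 2.58 and 3.61 CPM in AA vehicle, 0.911, 1.31, 1.5 and 3.54 in AA 5+3, 2.89, 4.08, 4.33, 4.77 and 4.94 in BCAA-free vehicle and 2.18 to 3.77 (median 3.56) in BCAA-free 5+3 mice. The groups given 5+3 overlapped through a single AA 5+3 mouse at 3.54 CPM. Deptor was 1.89-fold higher on the BCAA-free diet under 5+3 (0.92 ± 0.29, adjusted p = 0.0211), and the call was lost without AA 5+3 mouse 1, 2 or 4, at an adjusted p of up to 0.12. With vehicle the diet difference was 0.64 ± 0.27 (adjusted p = 0.212). Mlst8, the subunit shared with mTORC2, and Akt1s1, which encodes the inhibitor PRAS40, passed nowhere, with footprint log2 changes of -0.26 to 0.24 in the comparisons of 2 groups.

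Rheb, the GTPase that switches the kinase on, and the TSC complex that switches Rheb off (Tsc1, Tsc2 and Tbc1d7) passed no comparison in any kind of library. Footprint changes of Rheb and Tsc2 stayed between -0.13 and 0.13 log2 in the comparisons of 2 groups, with 95% intervals that all lay within -0.33 and 0.34. Tsc1 and Tbc1d7, with medians of 24 and 19 footprint counts, were less precise, with standard errors of 0.20 to 0.29.

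The Rag GTPases act as a pair of RagA or RagB with RagC or RagD. Rraga (ENSMUSG00000070934, chromosome 4, 86575673 to 86577285) had footprints of 23.7, 23.9, 24.3, 27.9 and 28.9 CPM in AA vehicle, 21.5, 22.5, 22.5 and 22.7 in AA 5+3, 22.6, 24.7, 25.7, 27.6 and 29.1 in BCAA-free vehicle and 23.7 to 30.01 (median 27.3) in BCAA-free 5+3 mice. All 7 BCAA-free 5+3 mice lay above the 4 AA 5+3 mice, a 1.21-fold difference (0.28 ± 0.10, adjusted p = 0.0344). The call was lost in 7 of 11 fits that left out 1 mouse.

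Rragc (ENSMUSG00000028646, chromosome 4, 123917433 to 123936997) moved in opposite directions in the 2 kinds of library. Its footprints were 23.2, 23.9, 25.2, 26.8 and 27.1 CPM in AA vehicle, 19.9, 20.6, 23.2 and 24.2 in AA 5+3, 22, 23.3, 24.3, 24.7 and 25.3 in BCAA-free vehicle and 15.4 to 21.9 (median 19.0) in BCAA-free 5+3 mice. Its mRNA was 38.4, 43.7, 47.1, 79.8 and 120 CPM, then 46.4, 48.0, 86.2 and 95.6, then 30.5, 35.6, 36.6, 38.9 and 55.8, and 56.5 to 173 (median 119) in the same order of groups. On the BCAA-free diet the groups did not overlap in either kind: with 5+3 footprints were 1.29-fold lower (-0.37 ± 0.10, adjusted p = 0.00897) and mRNA 2.68-fold higher (1.42 ± 0.33, adjusted p = 0.0158). Among the BCAA-free 5+3 mice, mRNA was 56.5 to 63.4 CPM in mice 3, 6 and 7 and 119 to 173 in the other 4, and mice 3, 6 and 7 had the highest footprints of the group. The footprint-to-mRNA ratio fell by 1.59 ± 0.34 on the log2 scale (adjusted p = 0.028). Without the 4 mice the changes were -0.41 in footprints (adjusted p = 0.0978), 1.33 in mRNA (0.257) and -1.57 in the ratio (0.331).

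Ragulator is the 5-subunit scaffold that anchors the Rag GTPases on the lysosome. Lamtor3 (ENSMUSG00000091512, chromosome 3, 137918555 to 137928762) and Lamtor5 passed in footprints, Lamtor4 in the ratio, and Lamtor1 and Lamtor2 nowhere. Lamtor3 footprints were 11.0, 12.7, 14.5, 16.7 and 18.8 CPM in AA vehicle, 15.5, 15.6, 16.9 and 17.8 in AA 5+3, 13.2, 14.1, 15.7, 16.7 and 18.1 in BCAA-free vehicle and 8.28 to 12.3 (median 9.87) in BCAA-free 5+3 mice. The highest BCAA-free 5+3 mouse lay below every mouse of the AA 5+3 and BCAA-free vehicle groups. Lamtor3 was 1.57-fold lower than with vehicle (-0.65 ± 0.13, adjusted p = 0.00107) and 1.66-fold lower than on the AA diet with 5+3 (-0.73 ± 0.13, adjusted p = 0.0003). On the AA diet 5+3 gave 0.13 ± 0.14, and the interaction was -0.78 ± 0.19 (adjusted p = 0.0171). Without the 4 mice the fall with 5+3 was -0.62 (adjusted p = 0.071), the diet difference -0.72 (adjusted p = 0.00206) and the interaction -0.75 (adjusted p = 0.133). Lamtor3 mRNA did not pass, with a change of 0.16 ± 0.23 for 5+3 on the BCAA-free diet.

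Lamtor5 footprints (ENSMUSG00000087260, chromosome 3, 107278858 to 107284082) were 12.0, 13.8, 17.3, 17.8 and 18.2 CPM in AA vehicle, 13.1, 15.5, 18.0 and 19.9 in AA 5+3, 15.9, 16.5, 17.7, 19.3 and 21.0 in BCAA-free vehicle and 13.2 to 15.8 (median 13.6) in BCAA-free 5+3 mice. The groups on the BCAA-free diet lay next to each other without overlap (-0.35 ± 0.12, adjusted p = 0.0366), and the call was lost in 8 of 12 fits that left out 1 mouse and without the 4 mice (-0.28, adjusted p = 0.361). Lamtor4 footprints (ENSMUSG00000050552, chromosome 5, 138255482 to 138259395) were 33.4 to 48.1 CPM in BCAA-free vehicle and 34.5 to 42.5 in BCAA-free 5+3 mice, while its mRNA was 412, 472, 541, 652 and 655 against 176 to 508 (median 214). In AA mice Lamtor4 footprints were 39.7 to 48.6 CPM with vehicle and 26.7 to 37.1 with 5+3. Its mRNA there was 212 to 606 CPM with vehicle and 237 to 463 with 5+3, overlapping both BCAA-free groups. The Lamtor4 ratio rose by 1.13 ± 0.32 with 5+3 on the BCAA-free diet (adjusted p = 0.0407), a call lost without the 4 mice (1.00, adjusted p = 0.34).

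Slc38a9 is the lysosomal membrane protein that senses arginine and contacts Ragulator and the Rag GTPases (ENSMUSG00000047789, chromosome 13, 112656189 to 112738752). Its footprints were 6.08, 6.74, 8.29, 9.30 and 10.3 CPM in AA vehicle, 6.26, 6.33, 7.74 and 9.44 in AA 5+3, 7.03, 7.94, 8.43, 8.66 and 9.27 in BCAA-free vehicle and 3.54 to 6.93 (median 4.71) in BCAA-free 5+3 mice. The BCAA-free 5+3 mice lay below all vehicle mice on that diet and overlapped the AA 5+3 mice. They were 1.64-fold lower than vehicle (-0.72 ± 0.17, adjusted p = 0.00508) and 1.48-fold lower than AA 5+3 mice (-0.56 ± 0.19, adjusted p = 0.0251). The mRNA fell too with 5+3 on the BCAA-free diet, from 17.2, 26.6, 36.8, 37.9 and 52.1 CPM to 7.52 to 30.8 (median 16.5), a 1.97-fold fall with overlapping groups (-0.98 ± 0.30, adjusted p = 0.0483). In AA mice the mRNA was 15.0, 28.8, 34.0, 34.8 and 49.0 CPM with vehicle and 20.0, 23, 23.9 and 27.1 with 5+3. Without the 4 mice all 3 calls were lost, the falls in footprints (-0.67, adjusted p = 0.125) and mRNA (-0.81, adjusted p = 0.314) and the diet difference in footprints (-0.53, adjusted p = 0.0665). The diet difference was also lost without AA 5+3 mouse 1 or 4, and the mRNA call in 9 of 12 fits that left out 1 mouse.

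The sestrins are the leucine sensors of the pathway and stress-responsive genes. Sesn2 (ENSMUSG00000028893, chromosome 4, 132492804 to 132510456), a target of ATF4, passed no comparison. Its mRNA was 2.07, 2.94, 5.5, 7.22 and 20.7 CPM in AA vehicle, 2.88, 4.60, 8.75 and 16.3 in AA 5+3, 1.08, 3.64, 5.26, 5.36 and 6.70 in BCAA-free vehicle and 2.72 to 23.3 (median 7.97) in BCAA-free 5+3 mice. The spread within each group was wide, and the change for 5+3 on the BCAA-free diet was 1.43 ± 0.61 (95% interval 0.23 to 2.64, adjusted p = 0.135). Sesn2 footprints, with a median of 20 counts per library, were 1.97, 2.66, 3.30, 3.37 and 4.71 CPM, then 2.72, 3.34, 4.29 and 4.36, then 3.54, 3.98, 4.08, 5.24 and 6.78, and 2.17 to 5.95 (median 3.77) in the same order of groups. Their change for 5+3 on the BCAA-free diet was -0.37 ± 0.23 (95% interval -0.83 to 0.09, adjusted p = 0.267). For the diet with vehicle it was 0.49 ± 0.26 (adjusted p = 0.332). Sesn1 footprints changed by -0.09 to 0.27 in the comparisons of 2 groups and passed nowhere, and Sesn3 was tested in mRNA only, at a median of 11 counts, and did not pass.

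GATOR2 is built from Mios, Seh1l, Sec13, Wdr24 and Wdr59, of which Seh1l and Sec13 also serve in the nuclear pore and Sec13 in secretory vesicle coats. Mios, Seh1l and Sec13 rose in mRNA with 5+3 on the BCAA-free diet, and none of the 3 passed in footprints. Mios (ENSMUSG00000042447, chromosome 6, 8209111 to 8240573) had mRNA of 14.0, 16.9, 20.1, 22.8 and 23.4 CPM in BCAA-free vehicle and 24.3 to 66.7 (median 58.7) in BCAA-free 5+3 mice, without overlap, a 2.41-fold rise (1.27 ± 0.27, adjusted p = 0.0115). As for Rragc, mice 3, 6 and 7 were lower, at 24.3 to 31.3 CPM against 58.7 to 66.7 in the other 4. On the AA diet Mios mRNA was 19.8, 20.8, 21.2, 28.9 and 41.7 with vehicle and 23, 25.5, 27.4 and 28.3 with 5+3.

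Seh1l mRNA was 55.6, 61.6, 66.5, 71.7 and 92.3 CPM in BCAA-free vehicle and 95 to 195 (median 134) in BCAA-free 5+3 mice, again without overlap (2.03-fold, 1.02 ± 0.24, adjusted p = 0.0176). In AA mice it was 63.3, 65.4, 69.6, 96.6 and 153 with vehicle and 82.6, 94.5, 115 and 123 with 5+3. Sec13 (ENSMUSG00000030298, chromosome 6, 113728052 to 113740681) rose 2.04-fold with overlap, from 61.8, 67.2, 133, 158 and 162 to 113 to 310 CPM (median 247; 1.03 ± 0.31, adjusted p = 0.0411). Its AA values were 92.0, 92.5, 132, 203 and 242 with vehicle and 116, 176, 211 and 226 with 5+3. The Sec13 mRNA call for 5+3 on the BCAA-free diet was lost in 8 of 12 fits that left out 1 mouse. Footprints of Mios changed by 0.20, of Seh1l by -0.10 and of Sec13 by 0.17 log2 in that comparison. The ratio accordingly fell for Mios (-0.86 ± 0.25, adjusted p = 0.044) and Seh1l (-0.96 ± 0.25, adjusted p = 0.0328), and both calls were lost without the 4 mice, at an adjusted p of 0.331 each.

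Wdr24 (ENSMUSG00000025737, chromosome 17, 25823627 to 25828730), a GATOR2 subunit with a RING domain, fell in footprints at a low depth of 19 counts per library (median). Its levels were 2.76, 3.12, 4.18, 5.32 and 5.62 CPM in AA vehicle, 3.64, 4.14, 5.45 and 5.58 in AA 5+3, 3.86, 4.08, 4.52, 5.24 and 5.54 in BCAA-free vehicle and 1.70 to 4.03 (median 3.26) in BCAA-free 5+3 mice. The lowest 3 of 21 mice were all in the last group, and the groups overlapped. Wdr24 was 1.59-fold lower than with vehicle (-0.67 ± 0.22, adjusted p = 0.0321) and 1.57-fold lower than on the AA diet with 5+3 (-0.65 ± 0.24, adjusted p = 0.0398), and each call was lost in 6 of the fits that left out 1 mouse and without the 4 mice (adjusted p = 0.18 and 0.0997). Wdr59 footprints changed by -0.51 ± 0.21 with 5+3 on the BCAA-free diet and did not pass (adjusted p = 0.0774).

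GATOR1, the complex that turns the Rag GTPases off, consists of Nprl2, Nprl3 and Depdc5. Nprl2 (ENSMUSG00000010057, chromosome 9, 107542177 to 107545706) passed in 3 footprint comparisons. Its footprints were 5.13, 7.89, 8.99, 9.17 and 9.88 CPM in AA vehicle, 9.16, 9.23, 9.80 and 10.2 in AA 5+3, 6.53, 7.08, 7.47, 7.53 and 10.3 in BCAA-free vehicle and 3.68 to 5.40 (median 4.92) in BCAA-free 5+3 mice. No BCAA-free 5+3 mouse reached the lowest value of the AA 5+3 or BCAA-free vehicle mice. Nprl2 was 2.06-fold lower than on the AA diet with 5+3 (-1.04 ± 0.17, adjusted p = 7.61e-05) and 1.67-fold lower than with vehicle (-0.74 ± 0.16, adjusted p = 0.00259). On the AA diet 5+3 gave 0.22 ± 0.18, and the interaction was -0.96 ± 0.24 (adjusted p = 0.0176). Without the 4 mice the diet difference was -0.98 (adjusted p = 0.000406), the fall with 5+3 -0.63 (adjusted p = 0.0992) and the interaction -0.85 (adjusted p = 0.126).

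Nprl2 mRNA fell as well with 5+3 on the BCAA-free diet, from 19.3, 21.0, 28.2, 30.4 and 36.3 CPM to 12.5 to 20.3 (median 17.8), a 1.58-fold fall with overlap (-0.66 ± 0.21, adjusted p = 0.049). In AA mice it was 25.0, 25.5, 26.4, 27.2 and 35.7 with vehicle and 12.8, 20.0, 20.3 and 27.1 with 5+3. The mRNA difference between the diets under 5+3 was -0.23 ± 0.22 and did not pass. The call for the mRNA fall was lost in 9 of 12 fits that left out 1 mouse and without the 4 mice (-0.90, adjusted p = 0.21). Nprl2 overlaps Cyb561d2 in the annotation, and the strand setting of the counting is not given in the sources used here, so reads in the shared stretch cannot be told apart. The same limit holds for other members that passed: Mtor shares sequence with the protein-coding Angptl7 and Rps6kb1 with Rnft1, and Rptor, Deptor, Rragc, Slc38a9, Seh1l, Fnip1 and Depdc5 with RNA genes or pseudogenes.

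Depdc5 (ENSMUSG00000037426, chromosome 5, 32863646 to 32994233) had its lower group means on the BCAA-free diet. Footprints were 5.89, 7.33, 7.75, 9.74 and 10.7 CPM in AA vehicle, 5.92, 8.29, 8.99 and 10.1 in AA 5+3, 3.86, 4.94, 5.24, 5.44 and 6.53 in BCAA-free vehicle and 3.37 to 5.71 (median 4.98) in BCAA-free 5+3 mice. Under 5+3 the diets did not overlap, and the BCAA-free mice were 1.69-fold lower (-0.76 ± 0.19, adjusted p = 0.00428). With vehicle the difference was -0.64 ± 0.20 and did not pass (adjusted p = 0.088). Chemotherapy gave 0.03 on the AA diet and -0.09 on the BCAA-free diet. Nprl3 footprints were lower by 0.37 ± 0.22 on the BCAA-free diet under 5+3 and its mRNA higher by 0.58 ± 0.16, and neither passed (adjusted p = 0.207 and 0.0732).

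**Figure D2:**
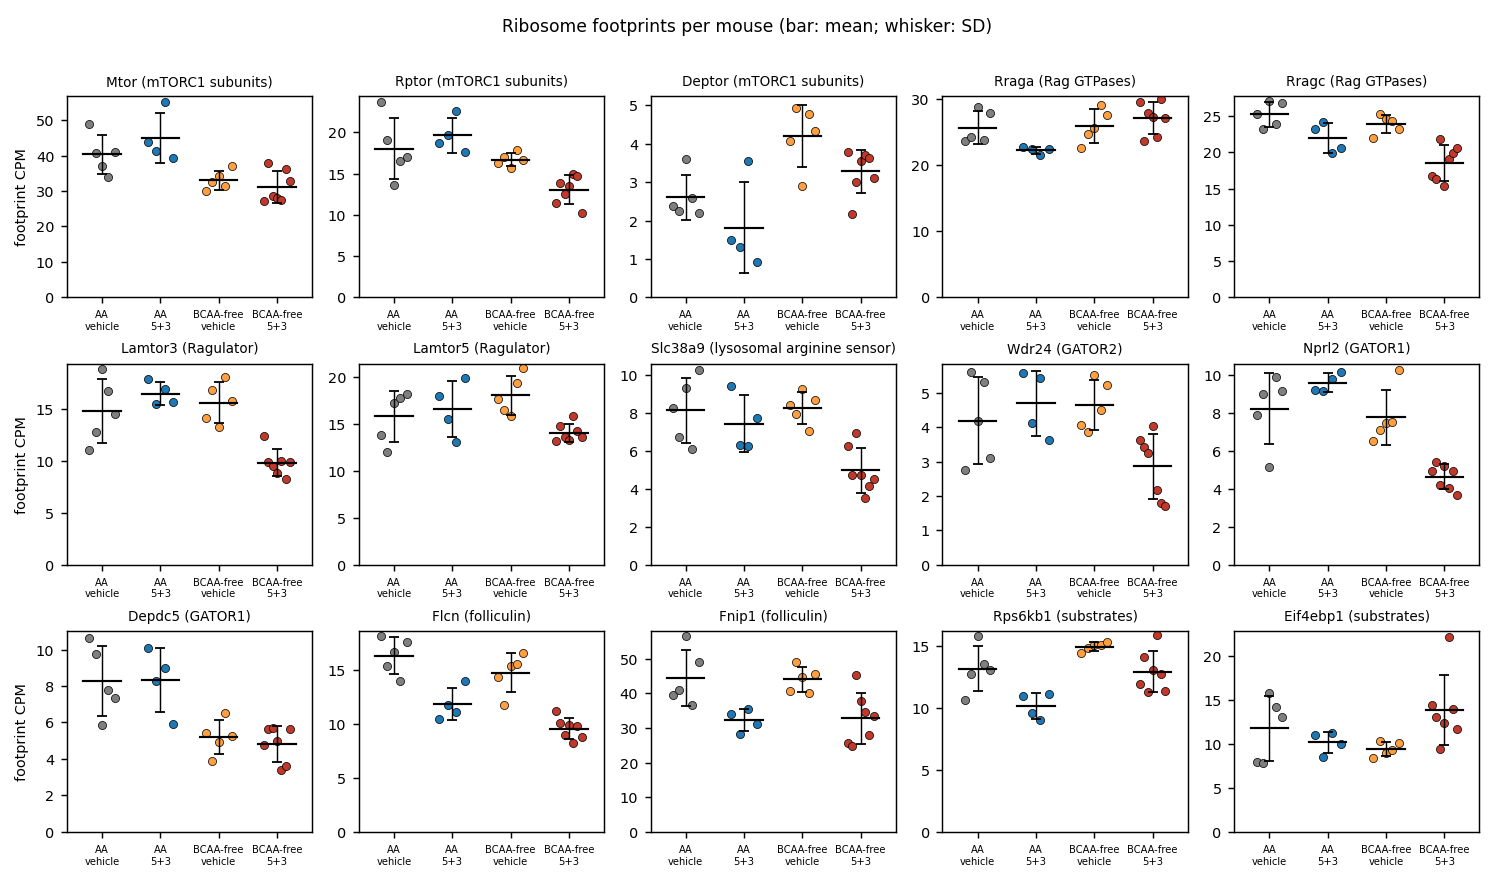
Footprint levels (CPM, vertical axes from 0) of the 15 members that passed a footprint comparison, 1 point a mouse, with the mean (bar) and SD (whisker) of each group. For Lamtor3 and Nprl2 the BCAA-free 5+3 mice, at 8.28 to 12.3 and 3.68 to 5.40 CPM, lie below all AA 5+3 and BCAA-free vehicle mice. They overlap the AA vehicle mice. For Flcn both groups given 5+3 lie low.

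The folliculin complex acts as a GTPase activator for RagC and RagD. Flcn (ENSMUSG00000032633, chromosome 11, 59791408 to 59810039), the gene with the TGACGTCA promoter match above, had footprints of 14.0, 15.4, 16.7, 17.6 and 18.1 CPM in AA vehicle, 10.5, 11.2, 11.8 and 14.0 in AA 5+3, 11.8, 14.4, 15.4, 15.6 and 16.6 in BCAA-free vehicle and 8.26 to 11.2 (median 9.83) in BCAA-free 5+3 mice. With 5+3 it was lower on both diets, with no overlap between 5+3 and vehicle on either. The fall was 1.54-fold on the BCAA-free diet (-0.62 ± 0.12, adjusted p = 0.000742) and 1.37-fold on the AA diet (-0.45 ± 0.13, adjusted p = 0.0421). The former passed in all 12 fits that left out 1 mouse and without the 4 mice (-0.65, adjusted p = 0.0334), and the latter was lost in 6 of 9 and without the 4 mice (adjusted p = 0.0512). Flcn mRNA was 44.7, 49.8, 71.9, 71.9 and 74.9 CPM in AA vehicle, 39.6, 45.6, 46.9 and 63.2 in AA 5+3, 28.3, 51.5, 56.9, 71.9 and 98.6 in BCAA-free vehicle and 22.3 to 78.7 in BCAA-free 5+3 mice, and did not pass.

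Fnip1 (ENSMUSG00000035992, chromosome 11, 54438107 to 54518241), a partner of folliculin, had footprints of 36.5, 39.5, 40.8, 49.0 and 56.4 CPM in AA vehicle, 28.4, 31.1, 33.9 and 35.4 in AA 5+3, 40.2, 40.8, 44.8, 45.6 and 48.9 in BCAA-free vehicle and 24.9 to 45.3 (median 33.4) in BCAA-free 5+3 mice. On the BCAA-free diet it was 1.35-fold lower with 5+3 (-0.43 ± 0.13, adjusted p = 0.0212), with overlap through 1 mouse at 45.3 CPM. The AA groups did not overlap, and the change there was of like size (-0.47 ± 0.15) but did not pass (adjusted p = 0.06). The BCAA-free change without the 4 mice was -0.36 (adjusted p = 0.279). Fnip2, the other partner, had a median of 19 footprint counts and passed nowhere. Its mean footprints were 2.95 CPM in BCAA-free vehicle and 4.26 in BCAA-free 5+3 mice, opposite in direction to Flcn and Fnip1. In AA mice the means were 4.05 with vehicle and 3.99 with 5+3.

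Rps6kb1 encodes S6 kinase 1 (ENSMUSG00000020516, chromosome 11, 86498869 to 86544885). Its footprints were 10.7, 12.7, 13.0, 13.5 and 15.8 CPM in AA vehicle, 8.99, 9.60, 10.9 and 11.1 in AA 5+3, 14.4, 14.8, 15.1, 15.1 and 15.3 in BCAA-free vehicle and 11.3 to 15.8 (median 12.7) in BCAA-free 5+3 mice. Under 5+3 they were 1.26-fold higher on the BCAA-free diet, without overlap (0.34 ± 0.12, adjusted p = 0.0413), and 5 of 11 fits that left out 1 mouse lost the call. Its mRNA passed nowhere, at 41.8 to 94.6 CPM over all mice.

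Eif4ebp1 encodes 4E-BP1, which mTORC1 phosphorylates to free the cap-binding protein eIF4E (ENSMUSG00000031490, chromosome 8, 27260327 to 27275656). It had footprints of 7.87, 7.89, 13.0, 14.1 and 15.8 CPM in AA vehicle, 8.51, 10.0, 10.9 and 11.2 in AA 5+3, 8.43, 8.91, 9.29, 10.0 and 10.3 in BCAA-free vehicle and 9.38 to 22.1 (median 13.0) in BCAA-free 5+3 mice. It was the only member that passed with higher footprints for 5+3 on the BCAA-free diet, 1.47-fold with overlapping groups (0.56 ± 0.18, adjusted p = 0.0317). The call was lost in 5 of 12 fits that left out 1 mouse, with the highest adjusted p, 0.0792, without BCAA-free 5+3 mouse 5 at 22.1 CPM. It was also lost without the 4 mice (0.66, adjusted p = 0.176). Eif4ebp1 mRNA was 94.6, 174, 180, 236 and 310 CPM in BCAA-free vehicle and 167 to 533 (median 346) in BCAA-free 5+3 mice and did not pass (0.67 ± 0.30, adjusted p = 0.145). AA mice had 150, 168, 185, 217 and 223 CPM with vehicle and 124, 172, 204 and 281 with 5+3.

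Eif4ebp2 (ENSMUSG00000020091, chromosome 10, 61428491 to 61452790), another 4E-BP, fell in mRNA. It went from 62.5, 79.3, 81.0, 101 and 144 CPM in BCAA-free vehicle to 28.9 to 58.0 (median 42.8) in BCAA-free 5+3 mice, a 2.09-fold fall without overlap (-1.06 ± 0.23, adjusted p = 0.0118) that was lost without the 4 mice (-0.69, adjusted p = 0.271). In AA mice the mRNA was 49.6, 61.4, 76.6, 77.9 and 83.6 with vehicle and 47.7, 55.4, 80.7 and 99.6 with 5+3. Footprints of Eif4ebp2 were 12.5 to 15.8 CPM in BCAA-free vehicle and 11.6 to 15.7 in BCAA-free 5+3 mice, and their change was -0.05. The ratio rose by 1.12 ± 0.31 (adjusted p = 0.0411), a call lost without the 4 mice (0.83, adjusted p = 0.371).

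**Figure D3:**
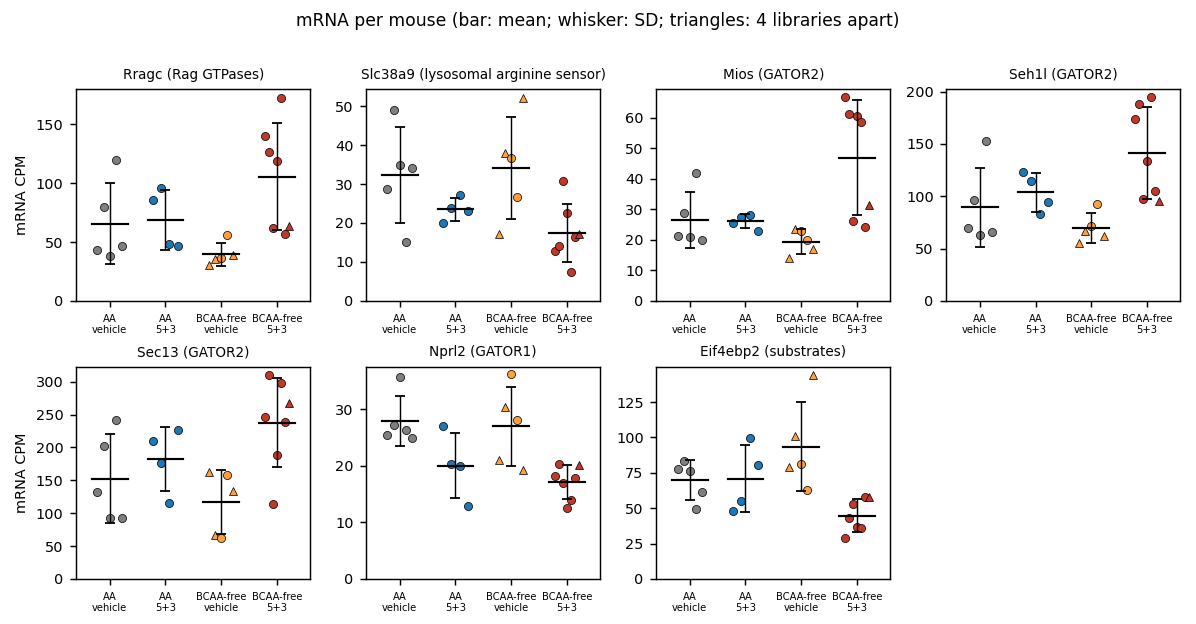
mRNA levels (CPM, vertical axes from 0) of the 7 members that passed in mRNA for 5+3 on the BCAA-free diet, 1 point a mouse, with the mean (bar) and SD (whisker) of each group and triangles for the 4 libraries that stood apart. Rragc, Mios, Seh1l and Eif4ebp2 show no overlap between BCAA-free vehicle and BCAA-free 5+3 mice, and the spread with 5+3 is wide for Rragc, at 56.5 to 173 CPM.

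The change in the footprint-to-mRNA ratio, a measure of translational efficiency, passed for 5 of 33 members with 5+3 on the BCAA-free diet, 15.2% where 7.45% of all genes passed (3.94% lower and 3.51% higher). The 3 that fell, Rragc, Seh1l and Mios, are genes whose mRNA rose. The 2 that rose, Lamtor4 and Eif4ebp2, had log2 mRNA changes of -0.82 (adjusted p = 0.0835) and -1.06. Footprints of 4 of the 5 did not pass in that comparison, the exception being Rragc. All 5 calls were lost without the 4 mice, where 0% of all genes passed. The other 4 ratio comparisons passed no member in edgeR's test, with unadjusted p under 0.05 for 2 members for 5+3 on the AA diet, 2 for the diet with vehicle, 7 for the diet under 5+3 and 5 for the interaction. At the adjusted threshold 0%, 0%, 0.00827% and 0.00827% of all genes passed in that order. Their share under the unadjusted threshold was not computed, so the unadjusted counts are no result about the members. With limma on the ratio of each mouse no member passed in any of the 4.

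**Figure D4:**
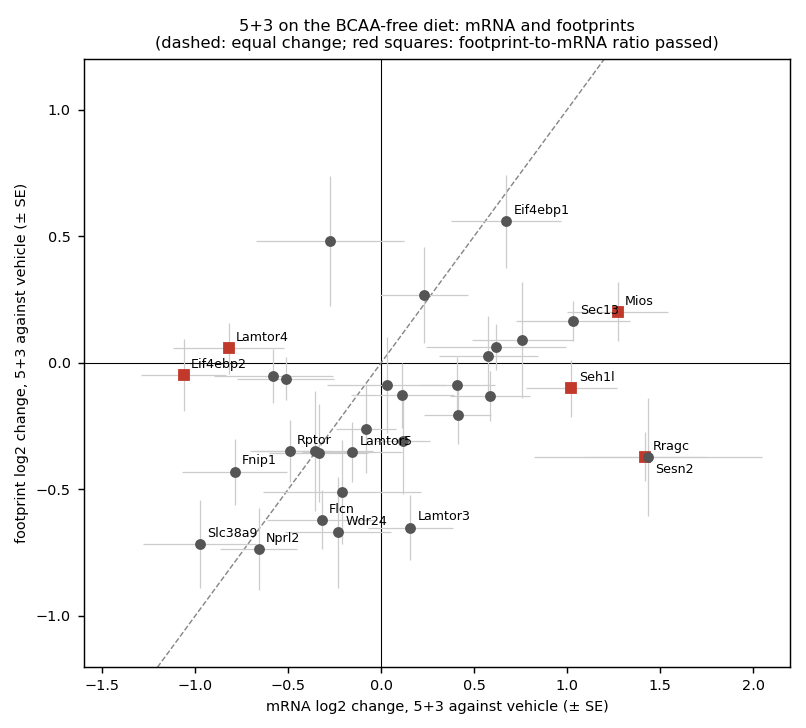
Log2 change of 5+3 against vehicle on the BCAA-free diet in mRNA (horizontal axis) and footprints (vertical axis) for the 33 members tested in both, with SE bars; red squares passed in the ratio and the dashed line marks equal change. Rragc lies at 1.42 in mRNA and -0.37 in footprints, far below the line, and Nprl2 and Slc38a9 lie below 0 on both axes.

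At baseline, in AA vehicle mice, the log2 ratio of footprint to mRNA CPM placed Ragulator low. Among 9442 protein-coding genes, Lamtor2 stood at percentile 1.43, Lamtor5 at 5.27, Lamtor4 at 8.86, Lamtor1 at 10.2 and Lamtor3 at 22.6, and the substrate Eif4ebp1 at 2.52. Mtor stood at 93.4, Rraga at 87.0 and Fnip1 at 85.9. The median of the 33 members was -1.81 and that of all genes -1.15, and 22 members lay below the latter. Because mRNA counts cover whole transcripts and footprints only the translated part, this order depends on the coding share of each transcript as well as on translation, which cannot be told apart without transcript lengths.

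Other genes of the pathway were described by lists. For 5+3 on the BCAA-free diet their footprint counts stand beside 11.9% of all genes lower, 8.76% higher and a median change of -0.02. Leaving out the 4 mice was, for these lists, an alternative chosen after seeing the data, and 2.39% of all genes passed there. Among PI3K, AKT and AMPK genes, which carry growth factor and energy signals to TSC, 9 of 20 fell and 0 rose, with a median of -0.26, but none passed without the 4 mice (median -0.30). The smallest adjusted p were those of the PI3-kinase catalytic subunits Pik3cd (-0.58 ± 0.11, adjusted p = 0.000792), Pik3ca (-0.64 ± 0.15, adjusted p = 0.00378) and Pik3cg (-0.40 ± 0.11, adjusted p = 0.0111). Without the 4 mice Pik3cd was at -0.30 (adjusted p = 0.194).

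Of 12 further amino acid sensing genes 4 rose and 1 fell (median 0.09), and 3 rose without the 4 mice. Those 3 were Lars, the leucyl-tRNA synthetase (0.71 ± 0.11, adjusted p = 0.000144), and both chains of the leucine transporter, Slc7a5 (0.83 ± 0.14) and Slc3a2 (0.52 ± 0.10, adjusted p = 0.00117). Their changes without the 4 mice were 0.71, 0.93 and 0.64, with adjusted p of 0.0309, 0.0256 and 0.0384. Of 21 downstream effectors 3 rose and 6 fell (median -0.20), and none passed without the 4 mice. Tfe3, the transcription factor whose location FLCN governs, fell (-0.82 ± 0.20, adjusted p = 0.0054), and Cad, the first enzyme of pyrimidine synthesis (0.41 ± 0.11), and Eif4e (0.38 ± 0.11) rose. Neither of the 2 mTORC2 subunits tested passed.

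mRNAs that begin with a 5′ terminal oligopyrimidine (TOP) tract are the classical translational targets of mTORC1. Of 16 such mRNAs other than those of ribosomal proteins, footprints of 8 rose and 0 fell with 5+3 on the BCAA-free diet, where 8.76% of all genes rose, and their median was 0.28 beside -0.02 for all genes. With the 4 mice left out 1 of the 16 passed, Vim (0.54, adjusted p = 0.0422), with a median of 0.33. Examples with all mice are Vim (0.47 ± 0.10, adjusted p = 0.00199), Npm1 (0.55 ± 0.12, adjusted p = 0.00238) and Hnrnpa1 (0.48 ± 0.11, adjusted p = 0.00339). In mRNA 1 rose, Hnrnpa1 (0.88 ± 0.21), and 2 fell, Eef1b2 (-1.15 ± 0.34) and Tpt1 (-1.08 ± 0.34), with a median of -0.39 beside -0.01 for all genes. Their ratio rose for 8 of 16, where 3.51% of all genes rose, with a median of 0.79 beside -0.11 for all genes. The smallest adjusted p were those of Eef1b2 (1.70 ± 0.42, adjusted p = 0.0317), Eef2 (0.90 ± 0.24) and Nap1l1 (0.94 ± 0.25). Without the 4 mice none of these mRNA or ratio calls passed, and the median ratio change of the 16 was 0.69 beside -0.08. For the diet with vehicle none of the 16 passed in mRNA or in the ratio. Their median mRNA change there was 0.37 beside -0.06 for all genes, with 15 positive. The median ratio change was -0.49 beside 0.06, with 1 positive. For 5+3 on the AA diet the medians were 0.04 in mRNA and -0.04 in the ratio, and none passed. Ribosomal protein genes, which also carry TOP tracts, took 6.35% to 12.0% of mRNA counts in BCAA-free vehicle mice and 3.63% to 8.08% in BCAA-free 5+3 mice. Their share was 3.38% to 7.35% in AA vehicle mice and 3.78% to 8.26% in AA 5+3 mice.

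Between the diets under 5+3, 15.8% of all genes were lower and 12.5% higher in footprints, with a median of 0.00. Of PI3K, AKT and AMPK genes 6 of 20 were lower and 1 higher, 35% where 28.3% of all genes passed, with a median of -0.24. Examples are Pik3cd (-0.60 ± 0.12, adjusted p = 0.000482) and Pdpk1 (-0.56 ± 0.13, adjusted p = 0.00186). In amino acid sensing 3 of 12 were higher and 2 lower (median 0.06). Among those higher was BC048403 (0.90 ± 0.28, adjusted p = 0.0183). Of 21 effectors 5 were lower and 1 higher, 28.6% and thus close to the share of all genes. Srebf2, the regulator of sterol synthesis (-0.86 ± 0.14, adjusted p = 9.62e-05), Tfe3 (-0.96 ± 0.21, adjusted p = 0.0014) and Hif1a (-0.48 ± 0.10, adjusted p = 0.000905) were lower. Each of these 6 named genes also passed without the 4 mice. Of the 16 TOP mRNAs 2 were higher and 0 lower between the diets, 12.5% where 28.3% of all genes passed. Their median was 0.23, with 15 positive. The interaction passed for Tfe3 (-1.03 ± 0.30, adjusted p = 0.0356), Lars (0.61 ± 0.17, adjusted p = 0.0278) and the TOP mRNA Nap1l1 (0.55 ± 0.16, adjusted p = 0.0328). None of them passed it without the 4 mice (adjusted p = 0.189, 0.149 and 0.144). The median interaction of the 16 TOP mRNAs was 0.31 beside -0.02 for all genes, with 16 positive.

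On the AA diet with 5+3, Tfeb footprints fell by 1.43 ± 0.27 on the log2 scale (adjusted p = 0.00184), Pdcd4 fell by 0.38 ± 0.11 (adjusted p = 0.0402), and Cad rose (0.52 ± 0.12, adjusted p = 0.0101). Of the 21 effectors 1 rose and 2 fell there, 14.3% where 6.61% of all genes passed. Tfeb and Cad passed without the 4 mice, and Pdcd4 did not (adjusted p = 0.0671).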

How the data were processed

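Per the labels, mRNA (Smart-seq2) and ribosome footprints were sequenced from the same lysates of 21 mice. The authors deposited raw counts of reads per gene. Their tools, per the submitters' processing notes, include featureCounts, STAR, Bowtie2, cutadapt and SAMtools, with the build GRCm38 (mm10). The versions, the annotation and the strand setting were not given in these sources, and copies of the members elsewhere in the genome were not examined. Symbols came from a gene name table (55141 of 55487 identifiers matched, 99.4%) and gene positions from RefSeq on GRCm38.p6.

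The analysis used edgeR 4.0.16 in R 4.3.3, with filterByExpr (minimum count 10, minimum total 15), TMM, and the robust quasi-likelihood test with all 4 groups in 1 fit per kind of library (21114 genes in mRNA, 15723 in footprints). The footprint-to-mRNA ratio was tested as the interaction of kind with group over 42 libraries, with the mouse as a block, since the labels tie both libraries to 1 mouse, on 12097 genes; across genes the deviations of the 2 libraries of a mouse correlated at a median of 0.081. Ratios per mouse used 0.5 CPM added to both levels. Adjusted p is by Benjamini-Hochberg over all genes tested, with a threshold of 0.05, and SE and SD are as stated. Within groups, all 47 pairs of libraries of each kind differed beyond sampling noise (chi-square per degree of freedom at least 34.1 in mRNA and 3.99 in footprints). Alternatives used DESeq2 1.42.0 and limma 3.58.1. The tests were tested on simulated counts with known changes.

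Values per group were given for each member that passed at least 1 of 15 comparisons and for Mtor, Rptor, Sesn2, Slc38a9, Rps6kb1 and Eif4ebp1, with values per mouse where up to 20 members passed. At most 3 genes with the smallest adjusted p were named per pathway list and comparison, and not all of those are printed. The members, lists and tests were chosen with earlier results of these data known, so no count over them is independent evidence.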

Additional observations from a re-analysis of the deposited data

Results flagged for a closer look

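Of 88 sets of values (a member in a group of 4 to 7 mice), 5 held a mouse far from the rest of its group by Dixon's test, where chance flags about 1 in 20. In mRNA, Nprl2 was at 35.7 CPM in AA vehicle mouse 3, against 25.0 to 27.2 in the others. In footprints, Lamtor3 was at 12.3 CPM in BCAA-free 5+3 mouse 1 against 8.28 to 9.94, Nprl2 at 10.3 in BCAA-free vehicle mouse 5 against 6.53 to 7.53, Eif4ebp1 at 22.1 in BCAA-free 5+3 mouse 5 against 9.38 to 14.4, and Deptor at 3.61 in AA vehicle mouse 3 against 2.2 to 2.58. Without the mouse concerned, Eif4ebp1 lost its call for 5+3 on the BCAA-free diet (adjusted p = 0.0792), whereas those of Lamtor3 and Nprl2 in footprints held.

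The response of footprints to 5+3 differed between the diets for Lamtor3, with an interaction of -0.78 on the log2 scale, and for Nprl2, with -0.96. With 5+3 they changed by -0.65 and -0.74 on the BCAA-free diet and by 0.13 and 0.22, not passing, on the AA diet.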

How the results depend on the processing

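No call of a member reversed its direction under any alternative. Leaving out the 4 mice whose mRNA stood apart, which leaves 2 BCAA-free vehicle mice, moved the number of members passed from 7 to 0 in mRNA and from 5 to 0 in the ratio for 5+3 on the BCAA-free diet, and in footprints from 10 to 1 there, from 1 to 0 for 5+3 on the AA diet and from 2 to 0 for the interaction. Fitting only the compared groups gave 4 mRNA calls for 5+3 on the BCAA-free diet, and DESeq2 gave 1 for the diets under 5+3 (main 0). For footprints with 5+3 on the AA diet (main 1), protein-coding genes alone gave 3, the omission of the 2 shallowest libraries 2, and DESeq2 and limma-voom 0. For the footprint interaction (main 2), protein-coding genes alone and the omission of the 2 shallowest libraries each gave 4. With no filter on low counts, 6 members passed in footprints for 5+3 on the BCAA-free diet and 6 for the diets under 5+3 (main 10 each). Causes were not tested.

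Replicate numbers shared between groups did not pair the mice: deviations of same-numbered libraries correlated at a median of 0.01 in mRNA (range -0.382 to 0.303) and -0.015 in footprints (range -0.267 to 0.413). With the replicate number as a block, footprint calls were 0 for 5+3 on the AA diet, 6 for 5+3 on the BCAA-free diet, 6 for the diets under 5+3 and 1 for the interaction, and mRNA lost only the call of Slc38a9 (adjusted p = 0.0844). In the ratio, dropping the mouse block lost only the call of Lamtor4.

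Leaving out 1 mouse at a time gave 4 to 8 mRNA calls for 5+3 on the BCAA-free diet, 0 to 2 footprint calls for 5+3 on the AA diet (2 without AA vehicle mouse 4), 5 to 9 for 5+3 on the BCAA-free diet (lowest without BCAA-free vehicle mouse 5, and 6 without mouse 4), 7 to 12 for the diets under 5+3, 1 to 4 for the interaction (1 without AA 5+3 mouse 1, 4 without AA vehicle mouse 1) and 0 to 7 in the ratio for 5+3 on the BCAA-free diet. The ratio gave 0 without BCAA-free vehicle mouse 2 or without BCAA-free 5+3 mouse 1, 2, 4 or 5, and 1 without BCAA-free vehicle mouse 1, 3 or 5. The mRNA count was 4 without BCAA-free vehicle mouse 2 or 3 or BCAA-free 5+3 mouse 1, 2, 4, 5 or 6. Flcn on the AA diet lost its call without AA vehicle mouse 1, 3 or 5 or AA 5+3 mouse 1, 2 or 3. The calls of Nprl2, Rptor, Mtor, Depdc5 and Lamtor3 for the diets under 5+3, and of Flcn for 5+3 on the BCAA-free diet, held in every one of these fits and in all 9 other alternatives. Footprint depth limits Deptor, Nprl3, Wdr24, Tbc1d7, Fnip2, Wdr59 and Sesn2, at medians of 15 to 20 counts. Intervals cover the spread between mice in these fits. Over all genes and all alternatives, footprint calls ran from 395 to 3740 for 5+3 on the BCAA-free diet (main 3242), 3012 to 4841 for the diets under 5+3 (4447), 535 to 1463 for 5+3 on the AA diet (1039), 0 to 659 for the diets with vehicle (321) and 109 to 2102 for the interaction (1115). In mRNA they ran from 19 to 3471 for 5+3 on the BCAA-free diet (1807), 67 to 776 for the diets under 5+3 (262), 0 to 94 for 5+3 on the AA diet (13), 0 to 161 for the diets with vehicle (0) and 5 to 176 for the interaction (16). In the ratio they ran from 0 to 1868 for 5+3 on the BCAA-free diet (901) and reached at most 194 in the other 4 comparisons (0 or 1).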
